A study of Pan troglodytes with 8 samples.

Results

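The genes described here are the integrins, the laminins and 5 proteins that tie laminin to the basement membrane or to the cell surface (nidogens 1 and 2, perlecan, dystroglycan and agrin). Membership was set by gene symbol, with no measured value in the rule. The count table on the chimpanzee genome (panTro6) held 43 of them among 60583 named genes: 18 integrin α chains, 8 integrin β chains, 12 laminin chains and the 5 linkers. The low-count filter of the test kept 41, and AGRN and ITGA7 were listed at 0 in all 8 libraries. RNA came from chimpanzee (Pan troglodytes) cerebral organoids, all grown from 1 induced pluripotent line, SandraA, then embedded in Matrigel and collected at week 8 of culture, give or take 3 days. Sorting by fluorescence gave 4 populations with 2 libraries each: aRG, the apical radial glia at the ventricle; bRG, their basal counterpart; bIP, the intermediate progenitors on the basal side; and N, BCL11B+ neurons. All groups share the line, the protocol and the age, and the labels name no treatment or genetic change. Nothing in the labels ties the 2 libraries of a population to different cultures, so the p-values reflect library-to-library spread that could be technical.

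Laminins are cross-shaped trimers of an α, a β and a γ chain that polymerise into the sheet of the basement membrane. Nidogens and perlecan connect that sheet to collagen IV, and cells hold on to it through integrins, which are pairs of an α and a β chain, and through dystroglycan. In the developing cortex the basal processes of radial glia end on the basement membrane under the meninges. The ventricular zone also makes laminins, and integrin signalling has been linked to the proliferation of radial glia, basal ones included. Matrigel is itself rich in laminin protein, but it is not RNA.

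Levels are CPM, the counts of a gene relative to its library's total after TMM scaling in edgeR, and are given for each library (n = 2 per population). CPM is not divided by transcript length, so values are compared between populations within a gene and never between genes. Library totals were 24649971 to 33245892 counts, and 3 counts corresponded to 0.0884 to 0.129 CPM. In bulk RNA, fewer cells of a type and less RNA per cell cannot be told apart. The 9 radial glia markers summed to 2829 to 4183 CPM in the radial glia libraries and to 784 to 1342 in bIP and N. Of the 9, 8 were called lower in N than in aRG, beside 4.8% of all genes tested. PTPRZ1 was called higher, and at 1082 and 688 CPM it held most of the N sum. The 6 intermediate progenitor markers summed to 2986 and 3886 CPM in bIP and to at most 708 elsewhere. The 8 neuron markers summed to 7886 and 7173 CPM in N and to at most 4009 elsewhere. The label bRG was not set apart from aRG by the 6 basal radial glia markers, which summed to 511 and 711 CPM in bRG and to 580 and 742 in aRG with none called. HOPX, a defining one, was at 33.5 and 28.2 CPM in bRG and at 41.9 and 49.7 in aRG. Fitted levels were lower in bRG for 4 of the 6 and higher for 2, TNC and MOXD1. MOXD1 was at 3.24 and 3.40 CPM in bRG and at 1.93 and 1.30 in aRG. PTPRZ1, which is on this list too, held much of the sum, at 358 and 436 CPM in bRG and 423 and 473 in aRG. The neuron markers were at 1079 and 2104 CPM in bRG against 483 and 903 in aRG. The second aRG library (aRG2) stood apart. There 12 mesenchyme and meninges markers summed to 1928 CPM, against 285 in aRG1, 171 and 242 in bRG, 25.4 and 93.7 in bIP, and 12.7 and 13.7 in N. The 10 choroid plexus markers summed to 998 and 3332 CPM in aRG and to 51.4 to 93.2 CPM in the other 6 libraries. TTR held most of both aRG sums, at 819 and 3092 CPM. HTR2C was also higher in aRG2 than in aRG1 (72.4 against 16.0 CPM). TRPM3 (66.8 against 94.4) and OTX2 (27.5 against 28.9) were not. Of the mesenchyme and choroid plexus lists, 7 of 12 and 6 of 10 genes were called lower in N than in aRG, beside 4.8% of all genes tested. FOXD1 and ALX1, which mark mesenchyme, stayed under 1 CPM in every library, as did 5 of 9 microglia and blood markers (AIF1 was at 0). The 10 endothelium and pericyte markers summed to 480 and 608 CPM in aRG, 415 and 413 in bRG, 198 and 153 in bIP, and 77.0 and 41.0 in N. Of these, 4 (CLDN5, NOTCH3, PDGFRB and TEK) were called lower in N than in aRG, beside 4.8% of all genes tested. NOTCH3 (321 and 421 CPM) and PDGFRB (124 and 147) held most of the aRG sum. In N they were at 7.39 and 5.31 CPM and at 31.6 and 7.94, so the fall of the sum rests mostly on these 2 genes. Fitted levels were higher in N for 3 of the 10, PECAM1, ACTA2 and CDH5, with none called. CDH5 was at 10.5 and 2.18 CPM in aRG and at 28.1 and 11.3 in N. The mesenchyme, choroid plexus and endothelium sums are lower in N than in aRG, as are many values below. The part of these 3 sums in those values was not tested.

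Of the 41 tested genes, 12 passed the test in at least 1 of the 6 comparisons, and every call was a lower level in the more differentiated population. They were the laminin chains LAMA1, LAMA3, LAMB2 and LAMC3, the linkers HSPG2 and NID1, the integrin α chains ITGA1, ITGA2, ITGA5, ITGA6 and ITGA8, and the integrin β chain ITGB5.
Between N and aRG, all 12 were lower in N and none was higher (edgeR quasi-likelihood test, Benjamini-Hochberg adjusted p under 0.05). That is 29.3% of the 41, where 9.67% of all 35382 genes tested passed, 4.8% lower in N and 4.87% higher. Between bIP and aRG, 6 were lower in bIP (14.6%), where 2.83% of all genes passed, 1.5% lower and 1.34% higher. Between bIP and bRG, 5 were lower in bIP, against 1.03% of all genes in either direction and 0.574% lower. Between N and bRG, 7 were lower in N, against 6.01% of all genes, 3.39% lower and 2.62% higher. Between N and bIP, 3 were lower in N, against 2.54% of all genes and 1.48% lower. No gene of the set passed between bRG and aRG, where 0.00283% of all genes did. That is 1 gene, the choroid plexus marker TTR, which was lower in bRG.

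The medians moved less than the called genes. The median log2 fold change over the 41 was -0.65 in N against aRG and -0.22 in bIP against aRG, where the medians of all genes tested were -0.08 and 0.05. It was -0.37 in bRG against aRG (all genes 0.02), with 30 of the 41 fitted lower in bRG. In bIP against bRG it was 0.08 (all genes -0.004), with 23 higher and 18 lower. In N it was -0.32 against bRG and -0.50 against bIP (all genes -0.11 and -0.10). The 6 comparisons share libraries, so they are not separate evidence. In each of the 33 calls the libraries of the 2 populations did not overlap, and the direction held within both replicate numbers. With 2 libraries per population a call nearly requires both, so neither is separate support. Libraries did not overlap in 123 of all 246 tested pairs of a gene and a comparison, and the share over all genes was not computed. Leaving out aRG2 left 9 of the 12 calls in N against aRG (LAMC3, ITGA5 and ITGA8 were lost) and 4 of the 6 in bIP against aRG (LAMA3 and NID1 were lost). Leaving out the second N library left 7 in N against aRG, and leaving out the second bIP library left 3 in bIP against aRG.

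**Figure D1:**
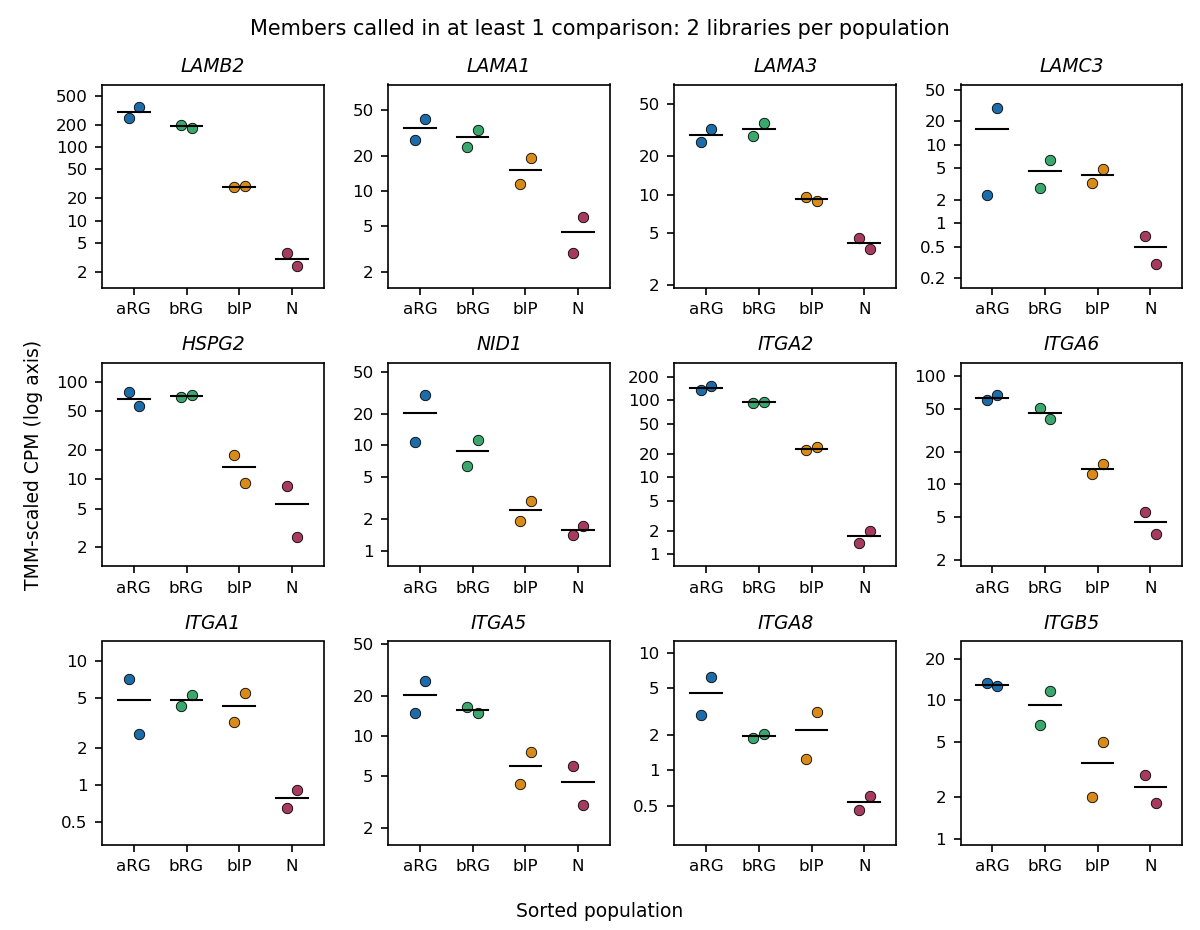
Level of each of the 12 called genes by population, in TMM-scaled CPM on a log axis. Points are single libraries (n = 2) and bars are means. LAMB2 falls from 246 and 356 CPM in aRG to 3.56 and 2.42 in N, and the single high LAMC3 point is aRG2.

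Among the laminins, 4 of 12 chains were lower in N than in aRG and 2 of these, LAMB2 and LAMA3, were also lower in bIP. Over all genes, 4.8% were lower in N than in aRG and 1.5% lower in bIP. LAMB2 encodes laminin β2, a chain found in the pial and vascular basement membranes of the brain. It was at 246 and 356 CPM in aRG, 202 and 184 in bRG, 28.3 and 29.3 in bIP, and 3.56 and 2.42 in N. Each population lay wholly below the one before it. The log2 fold change was -3.38 (SE 0.30, edgeR adjusted p = 0.00042) in bIP against aRG and -6.65 (SE 0.35, adjusted p = 1.79e-06) in N against aRG, a 100-fold lower level. From bIP to N it was a further -3.27 (SE 0.31, adjusted p = 0.00029). These calls held under every alternative that was run.

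LAMA3 encodes laminin α3, best known from the epithelial laminin of the skin. It was at 25.6 and 32.0 CPM in aRG, 28.3 and 35.4 in bRG, 9.55 and 8.97 in bIP, and 4.60 and 3.80 in N. The radial glia populations overlapped each other and lay above both others. In bIP against aRG the fitted change was -1.64 on the log2 scale (SE 0.35, edgeR adjusted p = 0.0249), and it was -2.78 (SE 0.37, adjusted p = 4.17e-04) in N against aRG. The bIP call was lost without aRG2 (adjusted p = 0.165), without bIP1 (0.113) and without bIP2 (0.163). Against bRG the bIP change was -1.78 (SE 0.35, edgeR adjusted p = 0.0342), lost without bRG1 (0.0743), bRG2 (0.183), bIP1 (0.142) or bIP2 (0.216) and with only those 2 populations in the model (0.0564).

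LAMA1 encodes laminin α1, the α chain of laminin-111, which is typical of early embryonic basement membranes. Its level was 27.9 and 42.0 CPM in aRG, 24.2 and 34.1 in bRG, 11.5 and 19.3 in bIP, and 2.90 and 5.96 in N. N lay below all other libraries, and its log2 fold change was -2.98 (SE 0.46, edgeR adjusted p = 0.00123) against aRG and -2.72 (SE 0.46, adjusted p = 0.00413) against bRG. In bIP against aRG it was -1.19 (edgeR adjusted p = 0.225), which passed with the replicate block (0.0274). In N against bIP it was -1.80 (SE 0.45, edgeR adjusted p = 0.0586), which did not pass. That comparison passed in DESeq2 (0.00293) and, with edgeR, with no low-count filter (7.02e-04), with at least 5 CPM in 2 libraries (0.0412) and with the replicate block (0.00312). It did not pass on the human genome (0.0578).

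LAMC3 encodes laminin γ3, whose loss in people is linked to malformed cortical folding. It was at 2.32 and 29.2 CPM in aRG, 2.85 and 6.43 in bRG, 3.30 and 4.92 in bIP, and 0.696 and 0.302 in N. N was lowest, and the aRG mean rests on aRG2, which was 12.6 times aRG1. The log2 fold change in N against aRG was -4.96 (SE 1.06, edgeR adjusted p = 0.00988) with all libraries and -2.23 (adjusted p = 0.21) without aRG2, and the call was also lost without N2 (0.0548). In N the log2 fold change was -3.20 (SE 1.00) against bRG and -3.02 (SE 1.00) against bIP. Neither passed (edgeR adjusted p = 0.0926 and 0.156). Both passed in DESeq2 (0.00421 and 0.0116) and, with edgeR, with no low-count filter (8.96e-05 and 4.30e-04), but not on the human genome (0.116 and 0.189). The mesenchyme marker sum was 6.76 times as high in aRG2 as in aRG1, and its part in the LAMC3 level was not tested.

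The laminin chains of the widely expressed trimers did not follow that pattern. LAMB1 encodes laminin β1, the usual alternative to β2. It was at 48.4 and 97.9 CPM in aRG, 21.2 and 20.9 in bRG, 42.5 and 38.2 in bIP, and 43.3 and 50.1 in N. bRG was lowest, and no bRG library reached any library of the other 3 populations. LAMC1, the common γ1 chain, was at 41.7 and 53.3 CPM in aRG, 28.0 and 42.4 in bRG, 44.2 and 104 in bIP, and 27.1 and 29.4 in N, and no comparison passed (smallest edgeR adjusted p = 0.0901, N against bIP). That comparison passed in DESeq2 (0.0155) and, with edgeR, with no low-count filter (0.00144), without bRG1 (0.0376), without bRG2 (0.0383) and without bIP1 (0.0159).
LAMB3, a β chain of epithelial laminin, reached 6.07 CPM at most in any library. LAMA2 and LAMA4 had their highest mean in aRG and LAMA5 and LAMB4 in bIP, and none was called.

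Among the linkers, HSPG2 and NID1 were lower in bIP and N, and DAG1 and NID2 were not called. Against aRG that is 2 of 4 tested, beside 1.5% of all genes lower in bIP and 4.8% lower in N. HSPG2 encodes perlecan, the heparan sulfate proteoglycan of basement membranes. It was at 78.1 and 56.2 CPM in aRG, 70.6 and 73.6 in bRG, 17.7 and 9.13 in bIP, and 8.55 and 2.55 in N. Both radial glia populations lay above both others. For bIP the log2 fold change was -2.32 (SE 0.50, edgeR adjusted p = 0.0248) against aRG and -2.43 (SE 0.50, adjusted p = 0.0416) against bRG. It was -3.59 (SE 0.53, adjusted p = 8.20e-04) in N against aRG. The bIP call against aRG was lost without aRG1 (adjusted p = 0.062) or bIP2 (0.157), and that against bRG without bIP2 (0.24).

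NID1 encodes nidogen 1, which bridges laminin γ1 and collagen IV. It was at 10.8 and 30.2 CPM in aRG, 6.45 and 11.3 in bRG, 1.94 and 2.95 in bIP, and 1.43 and 1.73 in N. aRG2 was 2.80 times aRG1, and aRG and bRG overlapped. NID1 had a log2 fold change of -3.06 (SE 0.60, edgeR adjusted p = 0.0161) in bIP against aRG, and -2.14 (adjusted p = 0.202) without aRG2, with the call also lost without bIP1 (0.0952) or bIP2 (0.0515). It was -3.70 (SE 0.62, adjusted p = 0.00213) in N against aRG, and -2.79 (adjusted p = 0.0251) without aRG2. In N against bRG it was -2.49 (SE 0.60, adjusted p = 0.028), lost without bRG2 (0.118), N1 (0.107) or N2 (0.0893) and with only those 2 populations in the model (0.0529).

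NID2, the second nidogen, was at 9.79 and 10.6 CPM in aRG, 9.63 and 9.11 in bRG, 10.2 and 13.8 in bIP, and 9.40 and 7.51 in N. DAG1 encodes dystroglycan, the laminin receptor whose sugar chains bind the laminin globular domains. It was at 112 and 167 CPM in aRG, 116 and 135 in bRG, 94.1 and 98.6 in bIP, and 113 and 83.0 in N. Neither gene passed in any comparison, and their smallest adjusted p was 0.618 for NID2 and 0.322 for DAG1.

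Among the integrin α chains, 5 of 17 tested were lower in N than in aRG, beside 4.8% of all genes. ITGA6 encodes α6, the main laminin-binding α chain and a surface marker of neural stem cells. It was at 60.2 and 66.3 CPM in aRG, 51.2 and 40.3 in bRG, 12.4 and 15.3 in bIP, and 5.53 and 3.45 in N. Each population lay below the one before it. Its log2 fold change was -2.19 (SE 0.34, edgeR adjusted p = 0.00405) in bIP against aRG, -3.81 (SE 0.36, adjusted p = 4.72e-05) in N against aRG and -1.62 (SE 0.34, adjusted p = 0.0259) in N against bIP. The call against bIP was lost without bIP2 (adjusted p = 0.132), without N2 (0.165) and with only those 2 populations in the model (0.16). The bIP call against bRG, at -1.73 (SE 0.33, adjusted p = 0.0301), was lost without bRG1 (0.139), bIP1 (0.168) or bIP2 (0.123).

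ITGA2 encodes α2, a collagen and laminin receptor chain. It was at 135 and 153 CPM in aRG, 93.0 and 94.8 in bRG, 22.3 and 24.5 in bIP, and 1.39 and 2.03 in N. Like LAMB2 it fell at each step with no overlap, and its 5 calls held under every alternative. The log2 fold change was -2.62 (SE 0.28, edgeR adjusted p = 6.06e-04) in bIP against aRG and -6.40 (SE 0.34, adjusted p = 1.79e-06) in N against aRG, an 84.2-fold lower level. In RefSeq the locus overlaps MOCS2, a molybdenum cofactor enzyme, and the libraries carry no strand. MOCS2 itself did not follow the fall: it was at 27.6 to 49.8 CPM in all 8 libraries.

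ITGA5, the fibronectin receptor chain, was at 14.9 and 26.1 CPM in aRG, 16.6 and 15.0 in bRG, 4.31 and 7.55 in bIP, and 5.92 and 2.98 in N. bIP and N overlapped each other and lay below both radial glia populations. In N against bRG the log2 fold change was -1.83 (SE 0.50, edgeR adjusted p = 0.0525), which did not pass. It passed in DESeq2 (0.00437) and, with edgeR, with no low-count filter (0.00455). It also passed with at least 5 CPM in 2 libraries (0.0274), the replicate block (0.0285) and halved counts (0.0403). It did not pass with DESeq2 size factors, with only those 2 populations in the model or on the human genome (0.0613). In N against aRG the log2 fold change was -2.20 (SE 0.51, edgeR adjusted p = 0.0148), which was lost without aRG2 (0.107) or N2 (0.102).

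ITGA1, a collagen receptor chain, and ITGA8, a chain that binds RGD ligands such as nephronectin, had low levels. ITGA1 was at 7.16 and 2.59 CPM in aRG, 4.34 and 5.26 in bRG, 3.22 and 5.47 in bIP, and 0.657 and 0.906 in N. ITGA8 was at 2.95 and 6.28 CPM in aRG, 1.88 and 2.05 in bRG, 1.24 and 3.15 in bIP, and 0.464 and 0.604 in N. For both, the N libraries lay below all 6 others. In N against aRG the log2 fold change was -2.63 (SE 0.71, edgeR adjusted p = 0.0352) for ITGA1 and -3.10 (SE 0.82, adjusted p = 0.0325) for ITGA8. Without aRG1 the ITGA1 call was lost (adjusted p = 0.283), as it was without N1 (0.151) or N2 (0.104), and without aRG2, N1 or N2 the ITGA8 call was lost (0.227, 0.138 and 0.112). With only aRG and N in the model both were lost (0.0979 and 0.0576). For ITGA1 in N against bRG the log2 fold change was -2.61 (SE 0.71, edgeR adjusted p = 0.0502), which did not pass. It passed in DESeq2 (0.00340) and, with edgeR, with no low-count filter (0.0197) and at least 5 CPM in 2 libraries (0.0340). It also passed with the replicate block (0.0335) and halved counts (0.0371), but not with DESeq2 size factors or with only those 2 populations. ITGA1 overlaps PELO in RefSeq, which was at 11.3 to 28.1 CPM in the 8 libraries.

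Another 4 α chains with a mean of 10 CPM or more in some population were not called. ITGAV, the αV chain of the vitronectin receptors, was at 105 and 85.4 CPM in aRG, 98.0 and 85.2 in bRG, 98.4 and 74.3 in bIP, and 204 and 92.0 in N. Only N1 was high. ITGA3, a laminin receptor chain, was at 11.0 and 18.3 CPM in aRG, 11.7 and 13.5 in bRG, 15.0 and 14.1 in bIP, and 27.7 and 15.8 in N. ITGA2B, best known as the platelet integrin chain, was at 50.0 and 56.6 CPM in aRG, 62.1 and 68.3 in bRG, 57.1 and 38.0 in bIP, and 93.9 and 81.8 in N. Its N libraries lay above all others, at a log2 fold change of 0.72 (SE 0.28, edgeR adjusted p = 0.147) against aRG, which did not pass. ITGA3 and ITGAV overlapped between aRG and N. ITGAE, a chain of lymphocyte integrins, was at 19.8 and 17.5 CPM in aRG, 12.6 and 12.8 in bRG, 18.8 and 6.69 in bIP, and 15.5 and 11.3 in N. It was not called. Its locus overlaps HASPIN, a mitotic kinase gene, which was at 12.5 and 12.3 CPM in aRG and at 0.193 and 0.173 in N.

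Among the 8 β chains only ITGB5 was called, in N against aRG (12.5% lower, beside 4.8% of all genes). ITGB5 pairs with αV, and it was at 13.3 and 12.6 CPM in aRG, 6.68 and 11.7 in bRG, 2.02 and 5.03 in bIP, and 2.90 and 1.81 in N. N and bIP overlapped and lay below both radial glia populations. In N against bRG the log2 fold change was -1.96 (SE 0.58, edgeR adjusted p = 0.0755), which did not pass. It passed in DESeq2 (0.00927) and, with edgeR, with no low-count filter (0.0195), with at least 5 CPM in 2 libraries (0.0428) and on the human genome (0.0303). The log2 fold change in N against aRG was -2.46 (SE 0.59, edgeR adjusted p = 0.0195), lost without aRG1 (0.055) or N2 (0.116). ITGB1, the β1 chain shared by most laminin and collagen receptors, was at 88.1 and 124 CPM in aRG, 89.3 and 75.5 in bRG, 131 and 129 in bIP, and 87.8 and 34.5 in N. The 2 N libraries differed by more than those of the other populations, and no comparison of ITGB1 passed. Without N1, N against bIP would be called for ITGB1 (log2 fold change -1.92, adjusted p = 0.00969), as would N against aRG (-1.63, adjusted p = 0.0103). ITGB8, which pairs with αV and activates latent TGF-β, was at 66.9 and 35.9 CPM in aRG, 64.5 and 49.3 in bRG, 57.7 and 51.3 in bIP, and 76.8 and 28.7 in N, with all populations overlapping.

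The remaining 20 genes, among them the leukocyte integrins ITGAL, ITGAM, ITGAX and ITGB2 and the epithelial chain ITGB4, had means under 10 CPM in every population on panTro6. AGRN and ITGA7, at 0, were not tested, and none of the others was called on panTro6. The human-genome counts of AGRN, ITGA7 and LAMA5 differ and are given below.

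**Figure D2:**
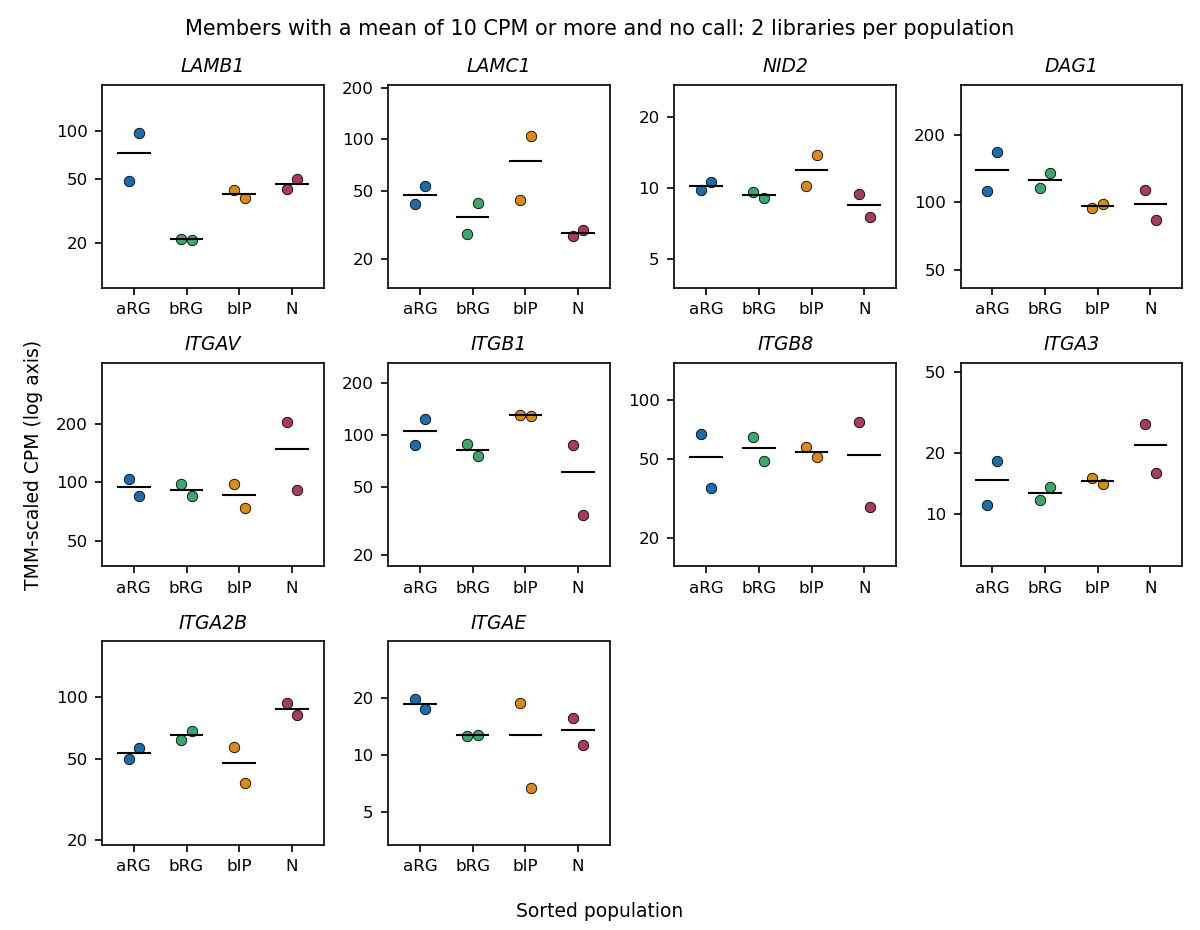
Level by population of 10 genes with a mean of 10 CPM or more in some population and no call, in TMM-scaled CPM on a log axis. Points are single libraries (n = 2) and bars are means. The bRG libraries of LAMB1 (21.2 and 20.9 CPM) lie below all others, and ITGB1, ITGAV and ITGB8 differ widely between the 2 N libraries.

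In the order aRG, bRG, bIP, N the mean fell at each step for 10 of the 41 tested genes, 9 of which were among the 12 called. Both radial glia means lay above both of the others for 14 genes, 11 of them called. The highest mean was in aRG for 20 genes, in bRG for 5, in bIP for 10 and in N for 6. This ordering of means is a description and was not tested.

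**Figure D3:**
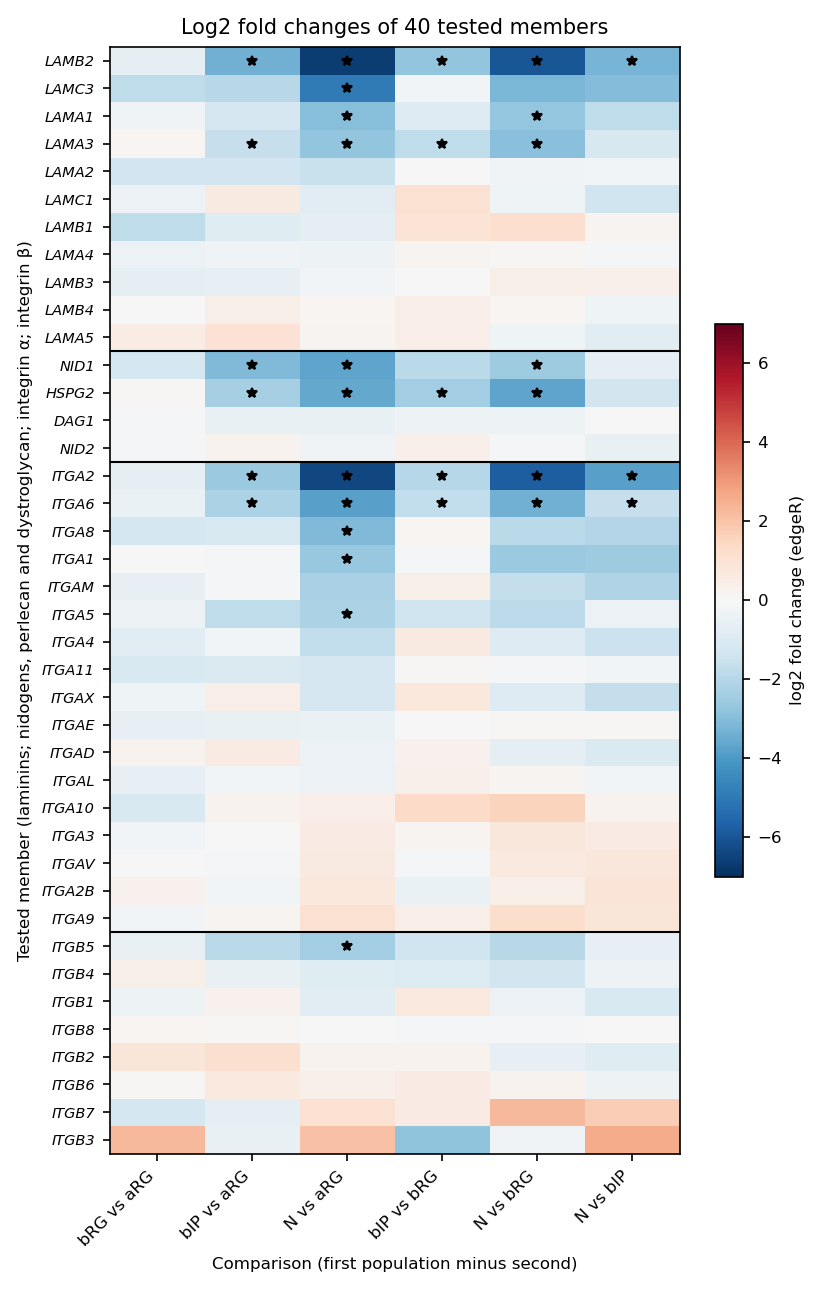
Fitted log2 fold changes (edgeR, first population minus second) of 40 tested genes in rows, grouped by family, for the 6 comparisons in columns. Blue is lower and red higher in the first population, and a star marks an adjusted p under 0.05. All 33 stars sit on blue cells, 12 of them in N against aRG, where LAMB2 (-6.65) and ITGA2 (-6.40) are darkest.

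Apical and basal radial glia are the comparison that the series title turns on, and there the set gave no call in the edgeR model used throughout. LAMB1, LAMB2 and ITGA2 were the 3 of 41 with an unadjusted p under 0.05, each lower in bRG, and 1318 of all 35382 genes tested had one. LAMB1 had a log2 fold change of -1.80 (SE 0.34, edgeR adjusted p = 0.477), which passed in DESeq2 (adjusted p = 0.00184) and when edgeR was run on unfiltered counts (9.25e-05). It was 3.48-fold lower in bRG, and aRG2 was 2.02 times aRG1. LAMB2 (-0.64) and ITGA2 (-0.62) had an adjusted p of 1.00. For LAMB1 the log2 fold change in N against bRG was 1.15 (SE 0.34), which did not pass with edgeR and all libraries after the low-count filter (adjusted p = 0.0699). It passed in DESeq2 (0.0237) and, with edgeR, with no low-count filter (0.0174), without aRG1 (0.034) and without aRG2 (0.0428).

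The same libraries were also counted on the human genome (hg38), where 42 of the 43 symbols were listed, all but ITGA1. AGRN, ITGA7 and LAMA5 differed by more than 1 on the log2 scale in all 8 libraries, each lower on panTro6. That is 3 of 41 compared (7.32%), and 6.02% of 15062 shared symbols differed as much. AGRN, the gene of agrin, a heparan sulfate proteoglycan, was at 35.0 to 71.4 CPM on hg38 and was not called. LAMA5, the α5 chain of adult basement membranes, was at 113 and 85.8 CPM in aRG, 119 and 94.6 in bRG, 285 and 118 in bIP, and 178 and 121 in N on hg38, against 1.77 to 6.49 CPM on panTro6. The panTro6 values of AGRN, ITGA7 and LAMA5 are therefore not taken as their level here.

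ITGA7, a laminin-binding α chain, was at 70.0 and 76.8 CPM in aRG, 64.8 and 74.2 in bRG, 26.3 and 16.8 in bIP, and 21.9 and 19.6 in N on hg38. Both radial glia populations lay above both others. The hg38 fit gave a log2 fold change of -1.77 (SE 0.29, edgeR adjusted p = 0.00525) in bIP against aRG and -1.82 (SE 0.29, adjusted p = 0.00152) in N against aRG. ITGB1 was at 24.3 to 86.6 CPM and ITGB8 at 58.3 to 223 CPM on hg38, so the absolute level of these 2 depends on the genome. All calls of genes listed in both tables were also made on hg38.

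**Figure D4:**
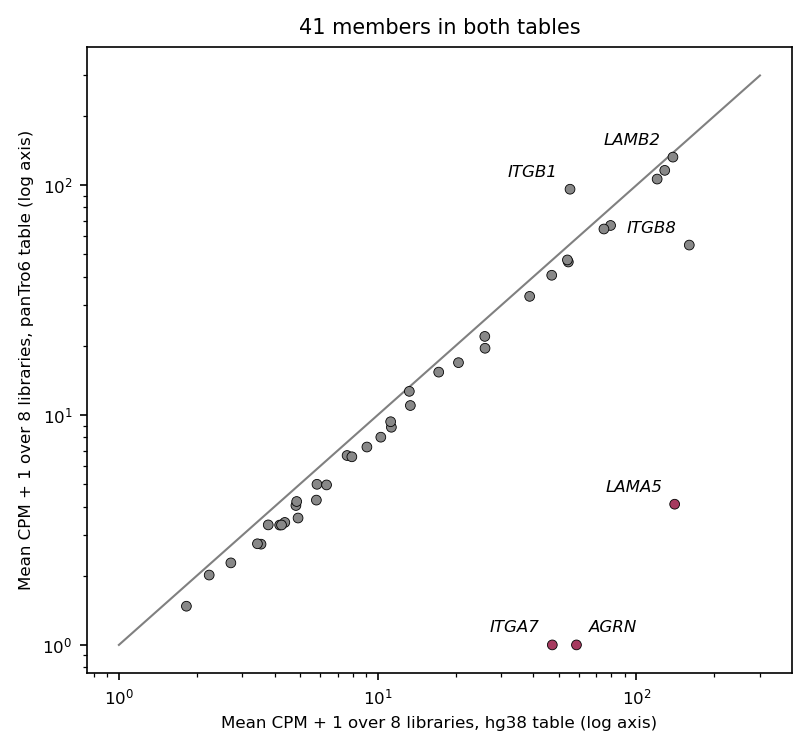
Mean CPM over the 8 libraries plus 1 on panTro6 (vertical) against hg38 (horizontal), both on log axes, for 41 genes in both tables, and the line marks equal values. AGRN, ITGA7 and LAMA5 (red) lie far below the line, ITGB8 lies below it and ITGB1 above it, and the other genes lie close to it.

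The genes around these receptors and sheets were read from 5 further lists. In N against aRG, 7 of 30 genes of the integrin adhesion complex were lower and 1 higher, where 4.8% and 4.87% of all genes were. Talin 1 (TLN1), which couples integrin tails to actin, was at 58.4 and 56.1 CPM in aRG, 46.8 and 46.1 in bRG, 40.0 and 46.7 in bIP, and 20.3 and 20.7 in N (log2 fold change in N against aRG -1.48, SE 0.27, edgeR adjusted p = 0.00368). N lay below all others. Tensin 1 (TNS1) was 5.31-fold lower (adjusted p = 0.00134), and the tetraspanin CD9, a partner of laminin-binding integrins, was at 7.32 and 20.6 CPM in aRG and 0.541 and 0.173 in N. The 1 higher gene was PTK2B, a kinase related to FAK, at 8.73 and 6.22 CPM in aRG and 52.2 and 16.9 in N. The list's median log2 fold change was -0.22.

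Of 26 tested genes of the dystroglycan complex and its glycosylation, 3 were lower and 2 higher in N than in aRG. That is 11.5% and 7.69%, beside 4.8% and 4.87% of all genes, with a median of -0.11. Utrophin (UTRN) and dystrophin (DMD), related proteins that anchor dystroglycan to actin, went opposite ways. UTRN was at 121 and 88.9 CPM in aRG, 99.7 and 70.9 in bRG, 29.8 and 29.4 in bIP, and 11.1 and 14.8 in N. DMD was at 64.5 and 53.9 CPM in aRG, 60.0 and 59.9 in bRG, 38.4 and 29.4 in bIP, and 110 and 151 in N. In N against aRG the log2 fold change was -3.02 (SE 0.32, edgeR adjusted p = 8.96e-05) for UTRN and 1.14 (SE 0.28, adjusted p = 0.0206) for DMD. POMGNT1, a glycosyltransferase acting on dystroglycan, was also higher in N (2.31-fold, adjusted p = 0.0224). SNTB1 and SGCA were lower, SNTB1 not without aRG2 (adjusted p = 0.0942).

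Of 16 tested collagens and soluble linkers of the basement membrane, 6 were lower and 1 (FREM1) higher in N than in aRG. That is 37.5% and 6.25%, beside 4.8% and 4.87% of all genes, with a median of -0.64. COL4A5 and COL4A6, neighbouring genes that encode collagen IV chains, were called lower in N than in bIP but not in bIP against aRG. COL4A5 was at 449 and 507 CPM in aRG, 379 and 367 in bRG, 239 and 277 in bIP, and 24.4 and 25.5 in N. COL4A6 was at 468 and 691 CPM in aRG, 462 and 548 in bRG, 344 and 452 in bIP, and 51.0 and 21.8 in N. Their log2 fold changes were -0.89 (edgeR adjusted p = 0.0638) and -0.54 (adjusted p = 0.604) in bIP against aRG, and -3.37 (SE 0.25, adjusted p = 1.52e-04) and -3.45 (SE 0.40, adjusted p = 9.20e-04) in N against bIP. SPARC, a collagen-binding matrix protein, was at 499 and 808 CPM in aRG, 430 and 417 in bRG, 67.9 and 46.9 in bIP, and 19.1 and 21.7 in N, and was called at both steps.

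Of 21 other integrin ligands tested, 9 were lower and 2 (EDIL3 and TNR) higher in N than in aRG. That is 42.9% and 9.52%, beside 4.8% and 4.87% of all genes, with a median of -0.82. MFGE8, an RGD protein that binds αV integrins, was at 97.5 and 95.5 CPM in aRG, 85.9 and 83.9 in bRG, 31.8 and 22.8 in bIP, and 2.78 and 2.50 in N (log2 fold change in N against aRG -5.19, SE 0.33, edgeR adjusted p = 2.55e-06). Tenascin C (TNC) was at 40.5 and 136 CPM in aRG, 52.0 and 163 in bRG, 20.5 and 17.7 in bIP, and 1.12 and 0.691 in N. CCN2, a matrix signalling protein, had no count in N and a mean of 9.78 CPM in aRG, so it was at least 79.7-fold lower against a floor of 3 counts per N library. FN1, POSTN, FBLN1 and FBN1, which mesenchyme also makes, were among the lower genes, and POSTN is itself in the mesenchyme marker list. The part of the mesenchyme sum in them was not tested.

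Of 11 tested genes of latent TGF-β and its activation by integrins, 3 were lower and none higher in N than in aRG. The lower ones are 27.3%, beside 4.8% of all genes lower and 4.87% higher, with a median of -0.67. LTBP1, which stores latent TGF-β in the matrix, was at 54.7 and 71.5 CPM in aRG, 41.7 and 57.3 in bRG, 15.1 and 12.1 in bIP, and 1.82 and 1.17 in N (log2 fold change in N against aRG -5.40, SE 0.41, edgeR adjusted p = 8.28e-06). The receptor TGFBR2 was 31.3-fold lower (adjusted p = 0.00108). LTBP4 was 2.14-fold lower (adjusted p = 0.0103), and this was lost without N1 (0.057). In bIP against aRG, 3 of 30, 1 of 26, 1 of 16, 4 of 21 and 2 of 11 genes were lower, in the order described. Only 1, EDIL3, was higher, and over all genes 1.5% were lower and 1.34% higher. In bRG against aRG none of the 5 had a call with edgeR, and 1 of 30, 1 of 26, 3 of 16, 2 of 21 and 0 of 11 genes had an unadjusted p under 0.05, beside 1318 of 35382 over all genes.

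**Figure D5:**
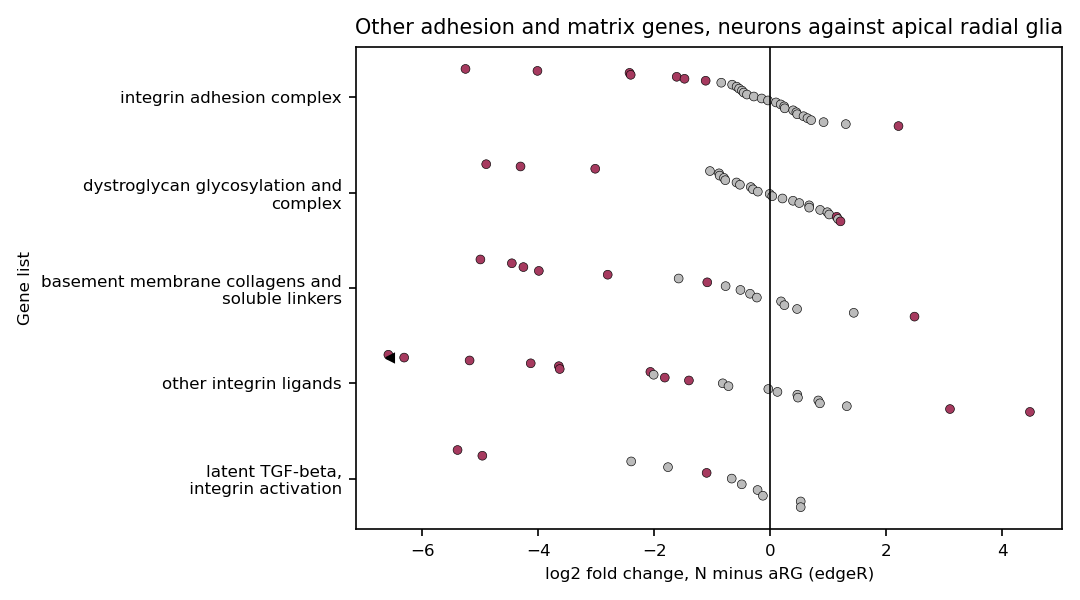
Log2 fold changes in N against aRG of the genes of 5 lists, 1 point per tested gene, red for an adjusted p under 0.05 and grey otherwise. CCN2, with no count in N, is drawn at its bound with an arrow. Most red points are below 0, and the 6 above it are PTK2B, DMD, POMGNT1, FREM1, EDIL3 and TNR.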

How the data were processed

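Bulk RNA of 4 sorted populations (2 libraries each) was reverse-transcribed and amplified without molecular identifiers or strand marking, per the labels' protocols. The authors deposited whole-number read counts per gene symbol on panTro6 and hg38. STAR is named in the submitters' processing notes. Its version and the annotation and counting program: not given in the sources used here. A row with no gene name (0.00545% to 0.00771% of counts) was left out. Counts on panTro6 were filtered with filterByExpr, TMM-scaled and fitted in 1 quasi-likelihood model over 8 libraries with edgeR 4.0.16 (R 4.3.3, 4 residual degrees of freedom). Two-sided p-values were adjusted by Benjamini-Hochberg over all 35382 genes for each comparison, and the threshold was 0.05. The common biological coefficient of variation was 0.629. Standard errors came from the F statistic.

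Genes named in full were those called in any comparison or averaging 10 CPM or more in some population, and from each further list the 3 with the smallest adjusted p, plus a few named after their values were seen (DMD, POMGNT1, PTK2B, FREM1, EDIL3, TNR and fibrous matrix genes). The genes and lists were chosen with earlier results of these data known. Ratios between genomes used CPM plus 1. Overlapping genes were looked up in RefSeq for NHGRI_mPanTro3-v2.0, a different assembly, so no coordinates are given. Alternatives were DESeq2 1.42.0, its size factors, other filters, the hg38 table, halved counts, a replicate block, only the 2 populations compared, and each library left out. The script was tested on simulated counts. The values of 1 gene of the set are not reported here, though it stays in all counts and medians.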

Additional observations from a re-analysis of the deposited data

How the results depend on the processing

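Of the 33 calls, 20 were kept under every alternative, 13 were lost under at least 1 and 0 reversed. With 1 library of each population set aside in turn the number of called genes ranged from 0 to 0 (bRG against aRG), 3 to 7 (bIP against aRG), 7 to 12 (N against aRG), 2 to 5 (bIP against bRG), 6 to 11 (N against bRG) and 2 to 5 (N against bIP). In bIP against bRG it was 3 without bRG1 or bIP1 and 2 without bIP2, in N against bRG it was 11 without aRG1 or aRG2, and in N against bIP it was 5 without aRG1, bRG1, bRG2, bIP1 or N1. The lone library left in a population is assumed to vary like the others. DESeq2 called 1 (LAMB1), 12 and 8 in bRG against aRG, N against bRG and N against bIP, and with no low-count filter the numbers were 1, 12 and 9. At least 5 CPM in 2 libraries gave 5 in N against bIP. Over all genes DESeq2 called 118, 2213, 5170, 1166, 3745 and 2436, and no filter gave 215, 2159, 4526, 1187, 3280 and 2264, in the order of comparisons above. Leaving out each library gave 1 to 85, 582 to 1428, 2382 to 3540, 140 to 642, 1190 to 2313 and 415 to 1265. Only the 2 populations compared gave 1392 in N against bRG and 543 in N against bIP. The cause of these shifts was not tested. Calls that appeared only under alternatives and were higher in the later population included LAMB1 in N against bRG (DESeq2, adjusted p = 0.0237) and ITGA2B in N against bIP with the replicate block (0.0444).

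The labels give no batch, so the replicate number was not a term in the main model. Same-numbered libraries deviated together only weakly over 35382 genes (correlations of 0.0462 to 0.104). Low-count genes weigh in these values, so they cannot tell whether the numbers pair the samples. MALAT1 held a larger share of counts in library 1 than in library 2 of all 4 populations (7.52% and 3.61% in aRG, 8.51% and 6.37% in N). With the replicate block the number of called genes was 1 (LAMB1, edgeR adjusted p = 0.0452), 8, 12, 5, 10 and 7. Among them were LAMB1 in N against bRG (0.0216) and LAMC1 in N against bIP (0.0152). Over all genes the block gave 39, 2122, 4960, 1121, 3594 and 2165, where the main fit gave 1, 1002, 3421, 365, 2128 and 900.

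The floor of 3 counts was 0.0884 to 0.129 CPM, below the libraries of nearly all tested genes. With 2 libraries per population and a coefficient of variation of 0.629, a gene that did not pass is not shown to be equal. The tables hold transcripts only, so no statement on laminin protein or on the matrix follows.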
